A study of Homo sapiens with 4 samples.

Results

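RAC3, PIP5K1A and KIF13A are genes of membrane signalling and trafficking. They encode a small GTPase, a phosphoinositide kinase and a kinesin motor. The 3 genes were chosen by symbol because their supernatant/input ratios were low in both lettered pairs of the gene table, so their ratios are given as a description and were not tested. They are 3 of the 5210 genes listed with a single N1-methyladenosine (m1A) peak (one-peak genes), in a table of 6434 genes that also holds 1224 genes without a peak (non-m1A genes). In this table both supernatant values lay below both input values in each of the 3 genes, and the mean supernatant intensity was lower by the most in RAC3.

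The study measured what an m1A antibody leaves behind in mRNA from HepG2, an established hepatoma line. The input arrays (n = 2) held intact RNA enriched for poly(A) and not depleted, and the supernatant arrays (n = 2) held the same kind of RNA after depletion with the antibody. All 4 samples came from this 1 line with no other treatment in the labels, and nothing in the labels says whether the replicates were separate cultures, so any spread between them may be technical. The gene table gives 1 supernatant and 1 input column for each of the letters A and B, and these letters were not matched to the replicate numbers of the labels.

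m1A carries a methyl group on the edge of adenine that pairs with uracil, so it blocks normal base pairing. In human messenger RNA it is known from regions around the start of translation, which are often rich in G and C. An antibody that binds m1A removes methylated molecules, so the RNA left in the supernatant holds the unmethylated share together with any methylated molecules that were missed. The 3 genes meet at the membrane. Rac GTPases switch on actin assembly at the cell edge when they bind GTP. Phosphoinositide kinases of the PIP5K type make the bisphosphate lipid of the plasma membrane, which anchors actin regulators and endocytic coats, and Rac proteins are known to bind these kinases. KIF13A walks along microtubules and carries endosomal cargo towards the cell surface.

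RAC3 is the member of the Rac group known mainly from the nervous system and from tumour lines. Its intensity was 147 in input A and 149 in input B, and 108 in supernatant A and 98.6 in supernatant B. The inputs lay almost on each other and far above both supernatants, and the higher supernatant value stood 0.45 on the log2 scale below the lower input value. Among the 5210 one-peak genes 6 had a wider margin than this, and among the 694 bright non-m1A genes 1 had. As a share of each set, a wider margin was no rarer among the bright non-m1A genes. Bright genes are those whose mean over the 4 columns is at least that of the dimmest one-peak gene, an intensity of 36.1. Mean intensity was 148 ± 1.36 in the input and 103 ± 6.39 in the supernatant (SD, n = 2 each). The log2 difference, mean log2 supernatant minus mean log2 input, was -0.52 ± 0.09 (SE from limma, which borrows the spread of all genes). Pair A gave -0.45 and pair B gave -0.60, so the supernatant held 26.8% and 33.8% less signal than its input. RAC3 had the 11th lowest ratio of the 5210 one-peak genes in pair A and the 11th lowest in pair B. In 8 of the one-peak genes and 1 of the bright non-m1A genes the higher of the 2 pair ratios was below that of RAC3 (0.732).

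PIP5K1A makes phosphatidylinositol bisphosphate at the plasma membrane and is also known from nuclear speckles. Its intensity was 199 in input A and 219 in input B, and 175 in supernatant A and 171 in supernatant B. The supernatants lay close together, the inputs were further apart, and the groups did not overlap. Group means were 209 ± 14.2 in the input and 173 ± 2.61 in the supernatant (SD, n = 2 each). The log2 difference was -0.27 ± 0.10 (SE). The pairs differed more than in the other members, at -0.19 for A and -0.36 for B. Input B, the highest of the 4 values, sets this gap, since the supernatants differed by only 0.03 on the log2 scale. In rank among one-peak genes PIP5K1A stood 93rd from the lowest in pair A and 43rd in pair B. In 33 of the 5210 one-peak genes and 5 of the 694 bright non-m1A genes the higher of the 2 pair ratios was below that of PIP5K1A (0.879). A wider margin between the groups than in PIP5K1A was found in 19 one-peak genes and 3 bright non-m1A genes. As a share of each set, neither was rarer among the bright non-m1A genes.

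KIF13A, a plus-end motor that moves mannose 6-phosphate receptors and recycling endosomes, was the dimmest of the 3. Its intensity was 45.3 in input A and 52.4 in input B, and 34.5 in supernatant A and 41.5 in supernatant B. Both B columns were brighter than the A columns, so the groups were separated by a narrow margin, with input A only 9.04% above supernatant B. A wider margin was found in 42 of the 5210 one-peak genes and in 8 of the 694 bright non-m1A genes. As a share of each set, this was no rarer among the bright non-m1A genes. In 13 one-peak genes and 1 bright non-m1A gene the higher of the 2 pair ratios was below that of KIF13A (0.793). Within a letter the drop was similar, -0.40 for A and -0.34 for B on the log2 scale. Group means were 48.9 ± 5.02 in the input and 38.0 ± 5.02 in the supernatant (SD, n = 2 each). The difference of mean log2 intensities was -0.37 ± 0.14 (SE). Without supernatant A the difference was -0.23, and with 32 added to every intensity before the logarithm it was -0.21.

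**Figure D1:**
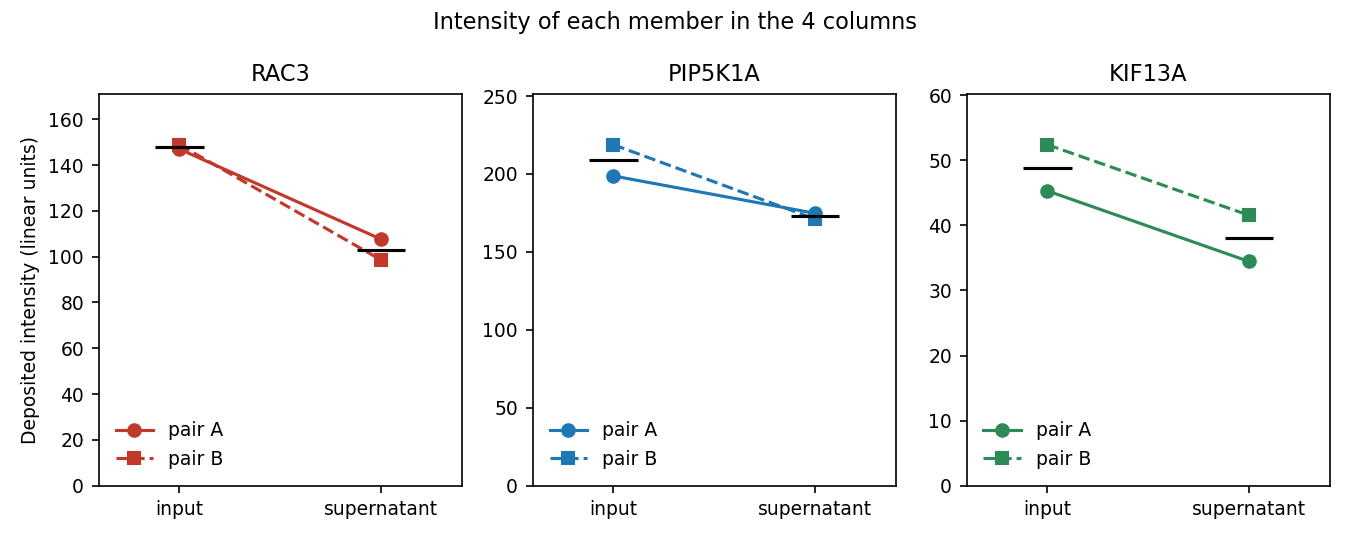
Deposited intensity (linear units, axis from 0) of RAC3, PIP5K1A and KIF13A in the input and supernatant columns; circles and solid lines are letter A, squares and dashed lines letter B, and black bars are group means (n = 2). In each gene both supernatant points lie below both input points, widely in RAC3 (98.6 and 108 against 147 and 149) and narrowly in KIF13A (41.5 against 45.3).

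Over all one-peak genes, 325 had both supernatants below both inputs (6.24%), as had 6.37% of all genes listed. The members were chosen from this end of the table, so their 3 of 3 is no result. Across the one-peak genes the median log2 ratio was 0.03 in either pair, and the first percentile was -0.23 for A and -0.33 for B. RAC3 and KIF13A lay below the first percentile in both pairs, and PIP5K1A did so in pair B only. The log2 ratios of pairs A and B differed by 0.15 in RAC3, 0.17 in PIP5K1A and 0.06 in KIF13A, against a median absolute difference of 0.11 over the one-peak genes. Agreement between pairs was therefore closer than the median in KIF13A alone, and the rule itself favours genes whose pairs agree.

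**Figure D2:**
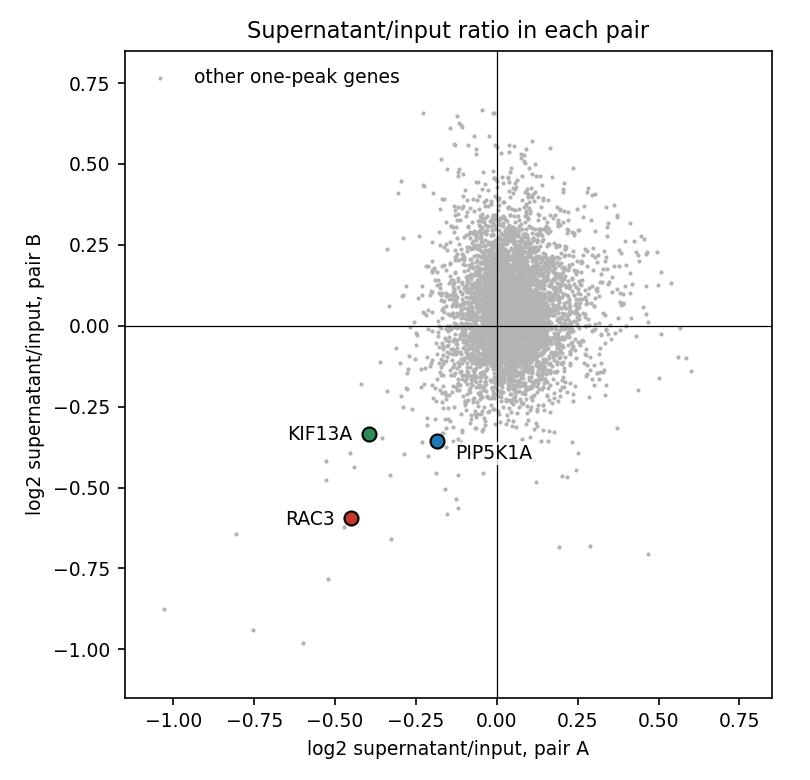
log2 supernatant/input ratio of the 5210 one-peak genes in pair A (horizontal axis) and pair B (vertical axis), with RAC3, PIP5K1A and KIF13A as large coloured points. The grey points crowd around 0.03 on both axes, while the 3 members lie to the lower left, RAC3 at -0.45 and -0.60.

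Ordered by the mean of the 2 ratios, RAC3 was 8th, KIF13A 15th and PIP5K1A 30th from the lowest of the one-peak genes. Mean ratios were 0.697, 0.777 and 0.831. TAP2, a peptide transporter gene, and PBX2, a transcription factor gene, stood just below RAC3 at 0.693 and 0.685. AZI1 and the ubiquitin ligase gene FBXO45 stood just above PIP5K1A at 0.834 and 0.835. The members thus span ranks 8 to 30, and the genes just outside that span had mean ratios close to those of RAC3 and PIP5K1A. Genes ranked between the members, those beside KIF13A included, were not compared.

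Brightness, which the rule did not use, placed the members differently. By mean input intensity, an array signal and not a number of molecules, RAC3 stood at the percentile 37.6 of the one-peak genes and PIP5K1A at the percentile 48.9, both in the middle of the range. KIF13A stood at the percentile 2.19, with 113 of the 5210 one-peak genes dimmer. The median one-peak gene had an input intensity of 216. When letter B was set against letter A over both kinds of RNA (limma with group and letter as terms, a comparison added after the data were seen), KIF13A was higher in B by 0.24 ± 0.07 (log2, SE) with an adjusted p of 0.182. This did not pass at an adjusted p under 0.05, and 0 of 6434 genes (0%) did in either direction. The same difference was -0.05 ± 0.08 in RAC3 (adjusted p = 0.679) and 0.05 ± 0.08 in PIP5K1A (adjusted p = 0.691).

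The authors' deposited table gives a methylated fraction of 0.46 for RAC3, 0.40 for KIF13A and 0.36 for PIP5K1A. Over the one-peak genes the median of that column in the authors' deposited table was 0.21, with 0.33 at the 99th percentile. A fraction here is 1 minus the mean ratio divided by a constant, 1.29, which is the mean ratio over all non-m1A genes. Recomputed from the intensities for each letter, RAC3 had 0.433 from pair A and 0.488 from pair B, PIP5K1A 0.319 and 0.395, and KIF13A 0.411 and 0.386. With no divisor the fractions were 0.303 in RAC3, 0.223 in KIF13A and 0.169 in PIP5K1A. When divided by 1.051, the mean ratio among bright genes without a peak, they were 0.337, 0.261 and 0.210, against a median of 0.0231 over the one-peak genes. A constant divisor keeps the order RAC3, KIF13A, PIP5K1A. In pair B alone KIF13A and PIP5K1A changed places, 0.386 against 0.395, so the order of these 2 genes is within the difference between pairs.

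**Figure D3:**
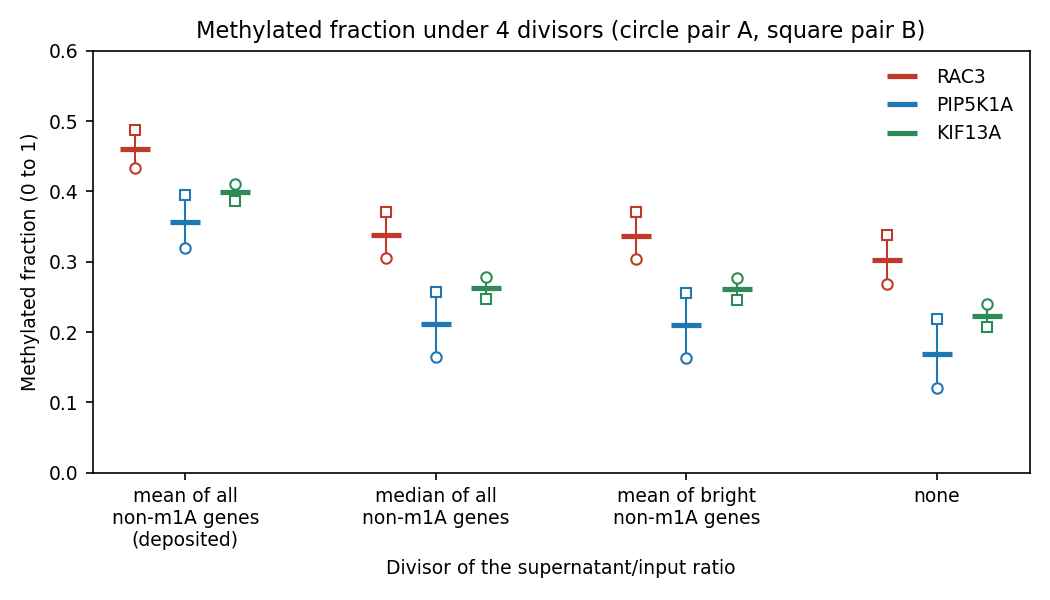
Methylated fraction (vertical axis, 0 to 1 scale) of the 3 genes under 4 divisors of the supernatant/input ratio; bars are the value from the mean of the 2 ratios, circles pair A and squares pair B. RAC3 stands at 0.460 with the deposited divisor and at 0.303 with none, and the ranges of KIF13A and PIP5K1A overlap under each of the 4 divisors.

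The nearest measured relatives of RAC3 had supernatant and input values close to each other. RAC1, the widely expressed Rac, read 1306 in input A, 1447 in input B, 1330 in supernatant A and 1432 in supernatant B, a log2 difference of 0.01 ± 0.10 (SE). RHOG, which acts upstream of Rac, was at 0.08 ± 0.10 with an input mean of 1564 ± 109 (SD, n = 2).

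Among enzymes of phosphoinositide metabolism, PIP5K1A and PLCD1 stood lowest. PLCD1, a phospholipase C that splits the lipid PIP5K1A makes, read 35.0 in input A, 52.4 in input B, 31.5 in supernatant A and 35.0 in supernatant B. Its log2 difference was -0.37 ± 0.22 (SE), larger in pair B (-0.58) than in pair A (-0.15). The other type I kinase in the table, PIP5K1B, is a non-m1A gene and was at 0.24 ± 0.15, with intensities of 45.5 and 36.7 in the inputs and 52.1 and 44.4 in the supernatants. PIP4K2C, of the related type II family, was at 0.25 ± 0.09, and VAC14, the scaffold of another lipid kinase, at 0.24 ± 0.20. Of 87 genes listed 38 were measured. Of the 37 other than PIP5K1A, 0 passed limma's test at an adjusted p under 0.05, where over all 6434 genes 0% were called lower and 0.0155% higher. Taking unadjusted p under 0.05, 0 of the 37 were lower and 1 was higher, against 0.622% lower and 1.4% higher over all genes. The balance over all genes turned with the scaling, from 40 lower and 90 higher to 77 and 53 after recentring on the genes without a peak, and to 74 and 45 after quantile normalization. The median log2 difference of the 37 was 0.07, beside 0.04 over all genes tested. Without input A, MTM1, a lipid phosphatase gene, was called higher at 1.24 ± 0.12 (limma adjusted p = 0.0277). It is dim, with inputs of 16.3 and 8.73, and its adjusted p was 1.00 with all columns.

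KIF13A was the lowest of the 19 kinesin genes measured of 50 listed. The others ranged from -0.16 to 0.19, with a median log2 difference of 0.01. KIF1B, of the same kinesin family, had nearly equal values in all 4 columns. Its intensities were 126 in both inputs and 126 and 128 in the supernatants, a log2 difference of 0.01 ± 0.08 (SE). The light chain gene KLC1 was at -0.16 ± 0.11, and the spindle motors KIF18A and KIF2A at 0.19 ± 0.23 and 0.17 ± 0.16. Both supernatants lay below both inputs in 3 of these 18 other genes, KLC1 and, chosen after their values were seen, KIF2C and KIFAP3, with log2 differences of -0.05 ± 0.09 and -0.04 ± 0.08. Over all genes listed 6.37% had this order. None of the 18 passed the test, where over all 6434 genes 0% were called lower and 0.0155% higher.

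Genes of endosomal sorting and recycling, the route KIF13A serves, were spread around the median of all genes. Of 63 listed, 36 were measured, and log2 differences ran from -0.09 to 0.23 with a median of 0.04. None of the 36 passed, where over all 6434 genes 0% were called lower and 0.0155% higher. RAB11FIP2, a recycling endosome adaptor, was at 0.23 ± 0.12, BLOC1S1 and BLOC1S4, subunits of a lysosome-related organelle complex, at 0.20 ± 0.19 and 0.18 ± 0.09, and the retromer gene VPS26A at 0.16 ± 0.14 (SE).

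**Figure D4:**
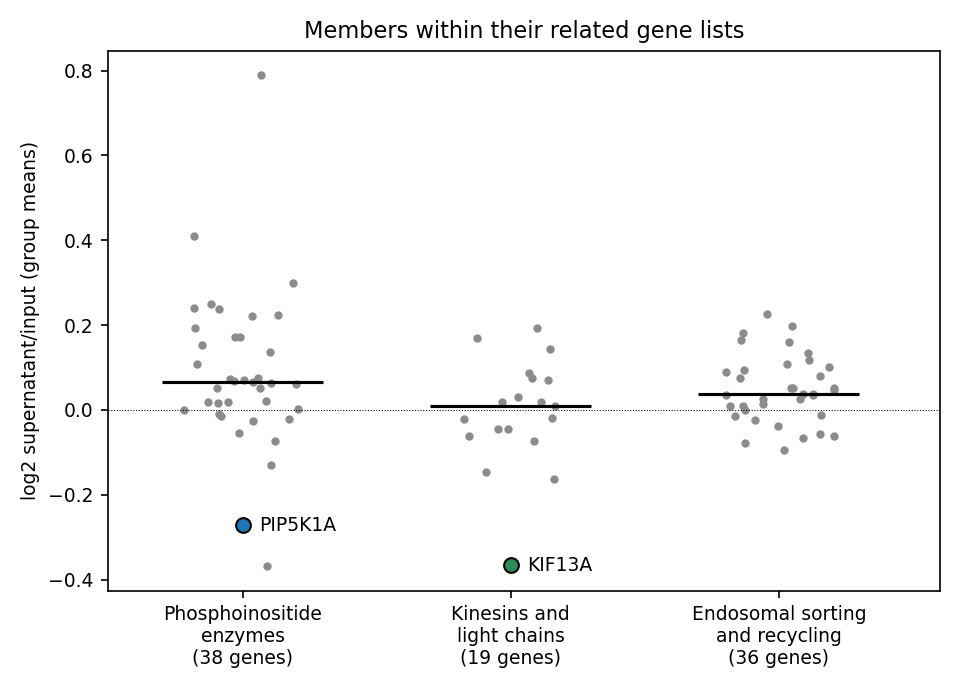
log2 supernatant/input (difference of mean log2 intensities, n = 2 each) of every measured gene in 3 related lists. Grey points are single genes, coloured points PIP5K1A and KIF13A and black bars the list medians, which run from 0.01 to 0.07. KIF13A is the lowest kinesin gene, and in its list PIP5K1A lies above PLCD1 at -0.37.

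The genes whose 4 values were most like each member's were found by the root mean square distance between log2 values, each gene centred on its own mean over the 4 columns. For RAC3 these were TAP2 (distance 0.0209), the DNA repair gene RAD23B (0.0531) and PBX2 (0.0636). For PIP5K1A they were SLC25A13 (0.0111), a mitochondrial carrier gene, CKAP2L (0.0270) and RGP1 (0.0317). For KIF13A they were the deubiquitinase gene USP48 (0.0555), the long noncoding RNA MALAT1 (0.0575) and SPRNP1 (0.0801). Distances between members were 0.137 for RAC3 and PIP5K1A, 0.119 for PIP5K1A and KIF13A and 0.175 for RAC3 and KIF13A. These are larger by construction, since the genes named were picked as the nearest of all one-peak genes. With only 4 values a gene, this likeness is a description.

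Genes that lie next to the members in RefSeq order were compared too, a choice made after the data were seen but by position alone. Beside RAC3 the nearest genes in the table were STRA13 at -0.03 ± 0.10 and DCXR at 0.15 ± 0.19 (log2, SE). PSMD4, a proteasome gene beside PIP5K1A, was at -0.09 ± 0.09 with an input mean of 2313 ± 126 (SD, n = 2). A retrocopy in the human genome, PIPSL, joins sequence of PIP5K1A and PSMD4, and since the probes behind the gene values are not given in the sources used here, a share of signal from it, or from other Rac genes in the case of RAC3, was not tested. Beside KIF13A stood the nuclear pore gene NUP153 at 0.04 ± 0.09 and TPMT at 0.01 ± 0.10. None of these 5 neighbours passed limma's test, where over all 6434 genes 0% were called lower and 0.0155% higher.

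The stretches of DNA before the transcript starts of PIP5K1A and KIF13A, both listed with a peak, are shown as a description. They lie outside a transcript that begins at that start, so its m1A cannot lie in them. Each is the 250 bases before 1 RefSeq start (GRCh38.p14), read 5′ to 3′ on the gene's strand. PIP5K1A lies on the plus strand at chr1:151198302-151198551 and KIF13A on the minus strand at chr6:17987636-17987885. Capitals mark matches on either strand to 5 motifs. These were the GC box, spelled GGGCGG, and the CCAAT box, which its name spells out. An E box was searched as CACGTG, and the core of the NRF1 site as GCATGCGC. The last was the TATA box, spelled TATAAA. The motifs were chosen after the sequences were seen, and RAC3 is not shown.
PIP5K1A: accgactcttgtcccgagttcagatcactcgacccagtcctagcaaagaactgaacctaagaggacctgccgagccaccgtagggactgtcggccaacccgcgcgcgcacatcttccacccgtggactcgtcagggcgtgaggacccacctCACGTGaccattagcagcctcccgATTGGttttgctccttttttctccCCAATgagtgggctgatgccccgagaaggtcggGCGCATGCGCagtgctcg
KIF13A: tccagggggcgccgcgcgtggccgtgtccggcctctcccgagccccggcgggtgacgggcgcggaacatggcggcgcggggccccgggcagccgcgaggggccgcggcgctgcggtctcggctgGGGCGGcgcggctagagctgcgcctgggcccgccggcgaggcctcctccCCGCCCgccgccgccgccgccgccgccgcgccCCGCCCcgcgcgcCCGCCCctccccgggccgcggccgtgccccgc

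The upstream sequences differed in composition. That of KIF13A was 88.0% G and C with 50 CpG dinucleotides, above 99.9% and 99.8% of the 4015 one-peak genes matched to a RefSeq window by symbol. The PIP5K1A stretch was 60.4% G and C with 20 CpG dinucleotides, below the one-peak median of 65.2%. Over the 911 matched non-m1A genes the median was 63.6%. The first 50 transcribed bases after the start were 82% G and C in KIF13A and 56% in PIP5K1A, above 93.7% and 10.2% of the one-peak genes, whose median was 68%. The KIF13A stretch held 4 GC boxes, a motif in 69.8% of one-peak windows and 42.6% of all 35116 RefSeq windows. The PIP5K1A stretch held no GC box. It held 2 CCAAT boxes, a motif in 36.6% of one-peak windows and 32.01% of all windows, and 1 E box, a motif in 9.32% and 6.34%. Near its start it also held 2 NRF1 cores that overlap on opposite strands, a motif in 5.50% of one-peak windows and 2.63% of all windows. In the windows of the non-m1A genes the GC box was found in 61.4% and the CCAAT box in 35.6%. The E box was in 9.33% of them and the NRF1 core in 4.61%. No TATA box was found in either stretch. A match describes these letters and does not show that a factor binds.

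The label of the cells was checked against markers. Among hepatocyte and HepG2 markers, APOE and FOXA1 had input intensities of 31.9 and 107, and of 12 mesenchymal line markers 5 were in the gene table, with intensities from 51.9 to 6210. Of 6 leukocyte markers CD68 was present at 36.2, and no endothelial or erythroid marker was. The table lists only genes with a single peak or none, so a missing marker need not be absent from the cells. The part of other cells in the members' values was not tested. Median intensities of the one-peak genes were 216 in both inputs and 222 in both supernatants.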

How the data were processed

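Affymetrix arrays of HepG2 input and supernatant RNA (n = 2 each) were used, with groups taken from the sample titles. The authors' deposited gene table holds intensity values on a linear scale, with a ratio and a fraction column, and per the file headers its columns carry letters and not replicate numbers. The steps behind them are not given in the sources used. The submitters' processing notes name RMA for the arrays. The deposited table of log2 values holds 49395 probe sets without gene names. None of them had the 4 values of a member within 0.1%, and it was not used further.

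Log2 intensities of all 6434 genes were fitted without pairing by lmFit and eBayes of limma 3.58.1 (R 4.3.3). Benjamini-Hochberg adjustment ran over the whole table. The fit was also run on simulated columns with independent noise, with changes only in genes above the median level. In the real columns those of the same letter deviated together, so the simulation does not show how the fit performs here or for a gene as dim as KIF13A. With 2 arrays a group the precision is limited by their number, and 0.333 is the smallest two-sided p of an exact permutation test. The deposited ratio was recomputed within 0.006 as the mean of both ratios over 1.29. Members and lists were chosen with earlier results of these data known. Named genes are the members, their nearest relatives, the 4 largest differences per list among bright genes, the 3 most alike and the adjacent ranks. Alternatives were the replicate block, a level filter, a trended prior, recentring, quantile normalization, an offset of 32, each column left out and other divisors. Some listed genes and 2 gene lists are not reported here. Python 3.11.15, pandas 2.3.3 and matplotlib 3.10.9 were used.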

Additional observations from a re-analysis of the deposited data

How the results depend on the processing

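All 3 members stayed negative in log2 supernatant/input under each of 8 alternatives. This is no sign of stability, since the members were chosen for low ratios and both supernatants lay below both inputs in each. With that order, dropping a column, adding the offset or using the block could not change the sign. Leaving out 1 column gave -0.59 to -0.46 in RAC3, -0.34 to -0.20 in PIP5K1A and -0.50 to -0.23 in KIF13A. With 32 added to each intensity RAC3 was at -0.41 and KIF13A at -0.21, where the offset shrinks differences of dim genes by construction. Recentring each column on the non-m1A genes lowers every gene by the same constant and put RAC3 at -0.59, PIP5K1A at -0.34 and KIF13A at -0.43. Quantile normalization put KIF13A at -0.46, for which the cause was not tested. The fractions depended on the divisor. RAC3 had 0.303 with none, 0.338 with the median ratio of the non-m1A genes and 0.337 with the mean of the bright ones. PIP5K1A had 0.169, 0.211 and 0.210, and KIF13A 0.223, 0.262 and 0.261. By input B alone KIF13A stood at the percentile 4.43.

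Over all genes limma called 0 lower and 1 higher. The 1 higher call became 0 above the median level, with a trended prior and with 32 added. With each column dropped in turn, between 0 and 3 genes were called lower and between 1 and 32 higher. The largest counts came without input A, where 1 phosphoinositide gene, MTM1, was called. That list otherwise stayed at 0. Same-lettered columns deviated together (correlation 0.451), but nothing in the labels says that letters pair the samples. With the replicate block on the letters, 0 genes were called lower and 1 higher, and the members' differences were unchanged because the design is balanced, with RAC3 at -0.52. The SE of KIF13A, the widest of the 3 without the block (0.142), was then the smallest at 0.0694, beside 0.0770 in RAC3 and 0.0801 in PIP5K1A, and 99 genes were lower and 268 higher at an unadjusted p below 0.05. Without input A these were 128 and 504.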
